A study of Mus musculus with 19 samples.

Results

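The isolated accessible regions are the 576 autosomal ATAC-seq peaks that lay more than 100000 bp from the nearest other peak on both sides. They were chosen only by position: the gap from the end of the previous peak to the start, and from the end to the start of the next peak, both had to exceed that distance. They were 576 of 137200 peaks on the 19 autosomes, or 0.420% (Wilson 95% interval 0.387% to 0.455%, treating peaks as independent), in a list of 140383 peaks in all. For comparison, 99647 autosomal peaks, called clustered here, had a neighbour within 5000 bp, and 36977 peaks fell in neither class. A further 6 peaks were the first or last of their chromosome and passed on the only side they had; they were not counted.

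ATAC-seq reads the sites where Tn5 transposase can insert adapters into open DNA, here in mouse bone marrow-derived macrophages (BMDM). Wild-type cells came from Csf1r-Cre mice and deleted cells from Smarca5 lox/lox Csf1r-Cre mice, in which Cre is driven by Csf1r, a gene of the macrophage lineage. The labels describe 7 days of differentiation with daily 4-hydroxytamoxifen and do not limit it to one genotype. Each genotype was left untreated or given LPS at 10 ng/ml for 1 or 2 h or IFNb at 100 U/ml for 1 or 2 h, which makes 10 groups. There were 19 samples, 2 in each of 9 groups and 1 in the wild-type group given IFNb for 1 h. The list holds 1 set of values per peak for the whole series and names no sample, so the isolated peaks could not be compared between genotypes or treatments. No replicate error can be given, and the read depth behind the values is unknown.

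Smarca5 encodes the ATPase of ISWI remodellers, which slide and space nucleosomes and are known to assist binding of CTCF, a factor at insulators and loop anchors. Accessible sites far from promoters commonly include enhancers and CTCF sites. Enhancers active in a cell type tend to lie near one another and near the genes of that cell type, whereas long stretches without accessible sites are typical of gene-poor, compact chromatin. No annotation or sequence of the files' build, mm39, was used, so no isolated peak is assigned here to a gene, an exon, an intron or a motif, and the macrophage identity of the cells was not checked against marker loci. Coordinates are mm39, counted from 1 at the first base.

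Isolated peaks stood in surroundings with few peaks. The gap to the nearer neighbour had a median of 175209 bp, with quartiles of 124808 and 303186 bp, and the gap to the farther neighbour a median of 522850 bp. Within 500 kb on either side of an isolated peak there was a median of 16 other peaks (quartiles 4 and 31), against 112 (quartiles 81 and 141) around a clustered peak. At 59 isolated peaks there was no other peak within 500 kb, and at 16 the nearer neighbour was over 1000000 bp away. These values largely follow from the rule and are given as a description.

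The most isolated peaks were ranked by the gap to the nearer neighbour, and 4 of the first 5 were of moderate or low enrichment. The first was chr8:99722716-99722873, with 3044034 bp free upstream and 5054827 bp free downstream. Its fold enrichment, the authors' value for signal over local background, was 5.41. The second was chr14:93437275-93437504, with a fold of 6.64 and gaps of 5631709 and 2343918 bp. It was followed by chr3:72953745-72953878 with a fold of 13.0 and gaps of 2238939 and 2156419 bp. The fourth, chr16:67417770-67417919, had the highest fold of the 5, 23.2, and the fifth, chr12:67106181-67106366, a fold of 7.37. The longest single gap, 8110081 bp, lay downstream of chr14:106918785-106918931, a peak with a fold of 17.1 and an upstream gap of 421378 bp. The scores of 4 of these 5 peaks were whole numbers, a property taken up below; the exception was the peak on chromosome 16.

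The threshold cut through peaks of like values. Just inside it were chr6:57011701-57011927, with a nearest gap of 100043 bp and a fold of 16.0, and chr13:4432014-4432224, with 100271 bp and a fold of 7.82. The third place was shared by chr6:133082082-133082775, with a fold of 23.6, and the next peak, chr6:133183127-133183392, with a fold of 8.31, which lie 100352 bp from each other. Just outside were chr14:87552538-87552719, with 99717 bp and a fold of 15.4, chr10:109921881-109922029, with 99473 bp and a fold of 8.60, and chr10:9451438-9451597, with 99463 bp and a fold of 14.8.

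All 19 autosomes held isolated peaks. Their number ran from 10 on chromosome 19 to 49 on chromosome 4, with a median of 29, and chromosomes 3 and 6 followed chromosome 4 with 47 and 44. Relative to the span between its outermost peaks, chromosome 4 had 3.20 isolated peaks per 10 Mb and chromosome 19 had 1.72. As a share of all peaks of the chromosome, the isolated ones were most frequent on chromosome 3, at 0.660%, and least frequent on chromosome 19, at 0.219%. Chromosome 11, with 84.9 peaks per Mb the densest autosome, had 28 isolated peaks, or 0.278% of its peaks, yet 2.36 per 10 Mb, close to the autosomal median of 2.39. Isolated peaks were thus spread over the genome with a 1.86-fold range per unit length.

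**Figure D1:**
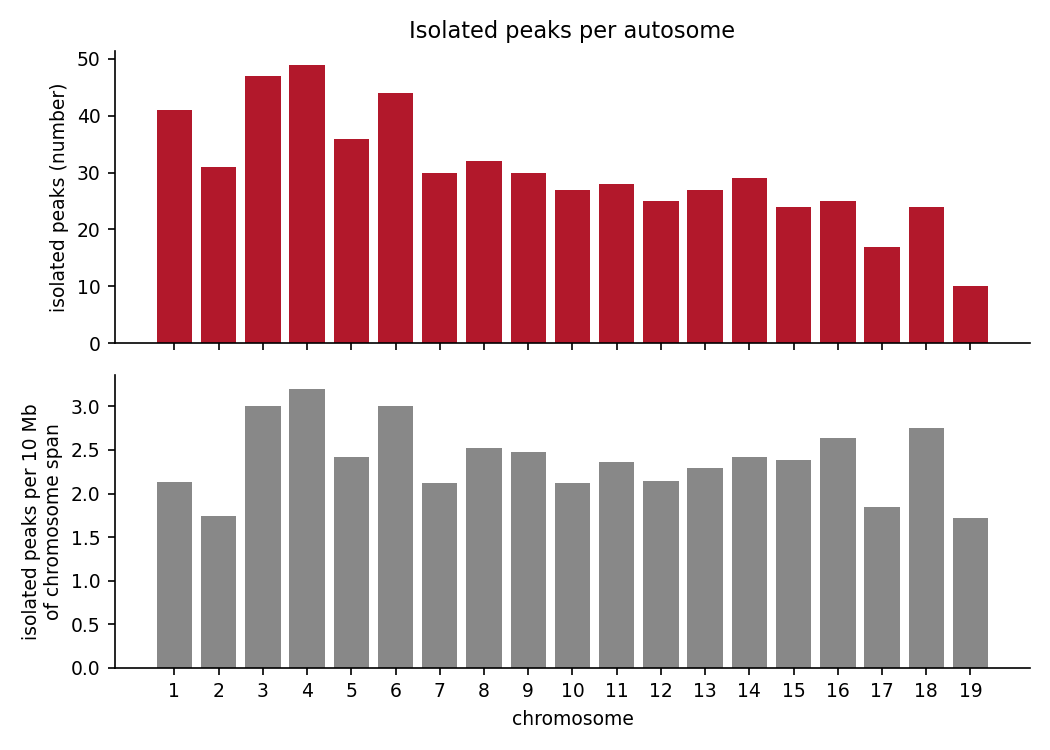
Number of isolated peaks on each autosome (top) and the same number per 10 Mb of the span between its outermost peaks (bottom). Chromosome 4 has the most, 49, and chromosome 19 the fewest, 10; per 10 Mb the autosomes lie between 1.72 and 3.20.

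Many isolated peaks followed one another along a chromosome. Of the 576, 238 formed 103 runs of 2 or more consecutive isolated peaks, and 338 stood alone between peaks that were not isolated. The rule favours such runs, since the peak next to an isolated one already has an empty flank on that side. No expected number of runs was computed. The longest run held 6 peaks on chromosome 6 from 61042920 to 64627124, a stretch of 3.58 Mb. Folds within this run were 14.6, 6.58, 22.1, 6.55, 8.35 and 11.1 in order of position, and widths were 93 to 180 bp. Position in the same empty stretch thus went with a more than 3-fold spread of enrichment. The 10 Mb window on chromosome 6 from 60000001 to 70000000 had 8 isolated peaks, more than any other, among 194 peaks in all. Windows with at least 5 isolated peaks numbered 24 and held 134 of them, while 37 of 256 windows with any peak held none.

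Isolated peaks had close to the same enrichment as clustered peaks, lower −log10 q and somewhat smaller width. Position, fold, −log10 q and width all come from the same peak calls, so these differences are described and not tested. The median fold was 9.09 for isolated peaks (95% order-statistic interval 8.77 to 9.53) and 9.21 for clustered peaks (9.16 to 9.26), and 9.84 over all autosomal peaks. The middle of the distributions therefore lay together. Folds of 20 or more occurred in 62 isolated peaks, or 10.8%, against 11.0% of clustered peaks and 15.0% of all autosomal peaks. Peaks of low fold were fewer: a fold under 5 was found in 28 isolated peaks, or 4.86%, against 13.0% of clustered peaks and 10.4% of all autosomal peaks.

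The −log10 q, the authors' measure of how firmly a peak was called, was where the classes parted. Its median was 24.9 for isolated peaks (95% interval 23.1 to 27.4) and 47.4 for clustered peaks (47.0 to 47.8), a ratio of 0.525. The lower quartile was 15.9 against 23.3, so by this measure the low end was weaker among isolated peaks. The upper quartile was 43.9 against 119. On each of the 19 autosomes the isolated median was the lower one, with differences (isolated minus clustered) from −9.05 on chromosome 2 to −32.6 on chromosome 17. Fold showed no such agreement: the isolated median was higher on 12 autosomes and lower on 7, with differences from −1.98 on chromosome 1 to 2.67 on chromosome 2.

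Width was between these. The median was 173.5 bp for isolated peaks (95% interval 166 to 180) and 193 bp for clustered peaks (192 to 193), and the isolated median was the smaller on 16 autosomes and the larger on chromosomes 7, 10 and 12. Wide peaks were rare among the isolated ones: 13, or 2.26%, were at least 500 bp wide, against 6.29% of clustered peaks and 7.33% of all autosomal peaks. The narrowest isolated peak was 93 bp wide and the narrowest of the far more numerous clustered peaks 2 bp. The 5th percentiles of width were closer, at 122 and 109 bp, with 117 bp over all autosomal peaks.

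**Figure D2:**
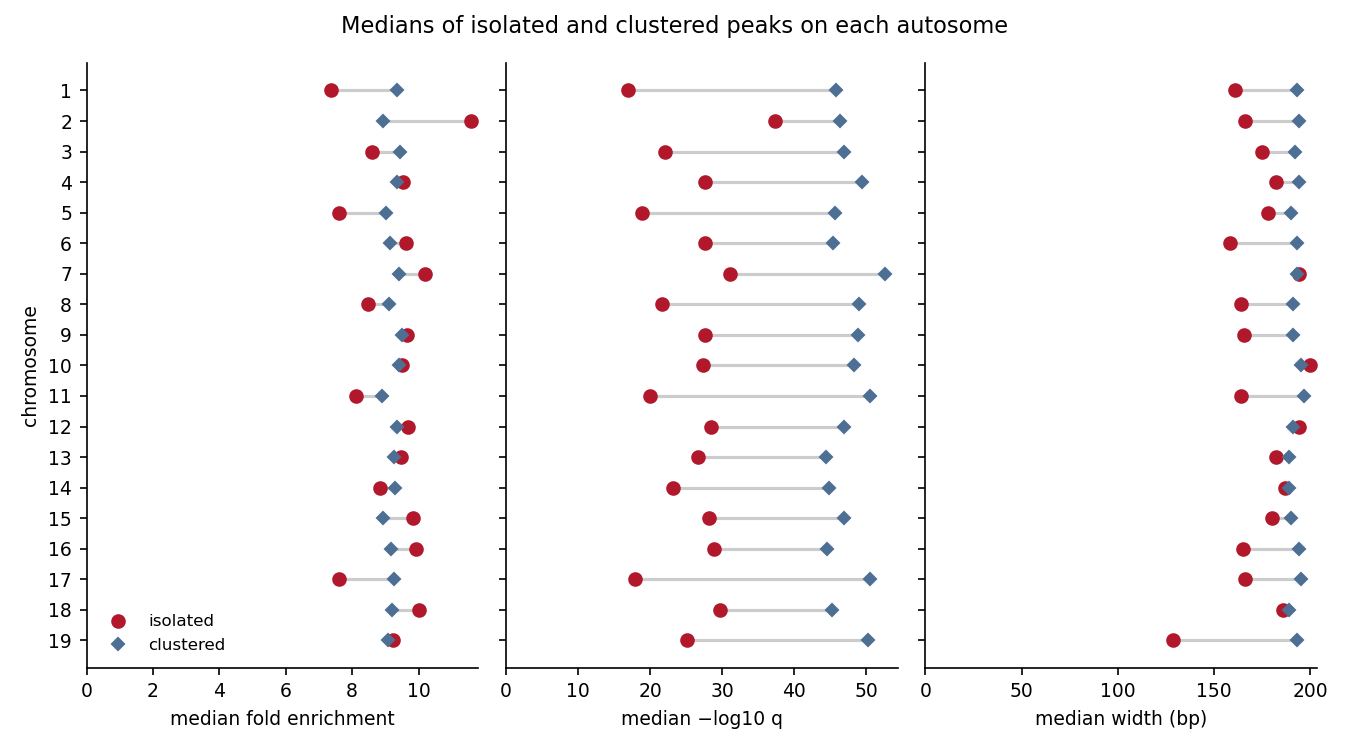
Median fold enrichment, −log10 q and width (bp) of isolated peaks (red circles) and clustered peaks (blue diamonds) on each autosome, joined by a grey line. The isolated median of −log10 q is lower on all 19 autosomes, of width on 16, and of fold on 7.

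At equal fold, isolated peaks had a lower −log10 q. Autosomal peaks were divided into 10 equal classes of fold, and the isolated median of −log10 q was lower than the clustered one in 10 of 10, at 0.426 to 0.702 times its value. In the fifth class, with folds from 8.44 to 9.84, the medians were 24.9 and 35.9; in the ninth, with folds from 17.6 to 23.1, they were 87.1 and 204. Relative to the median of all peaks in the same percentile of fold, 558 of 576 isolated peaks, or 96.9%, had a lower −log10 q, against 49.6% of all autosomal peaks and 35.7% of clustered peaks. The relation of the 2 measures was correspondingly tight: Spearman's rho between fold and −log10 q was 0.999 across isolated peaks (n = 576) and 0.816 across clustered peaks (n = 99647). Peaks are not independent replicates, and both measures are computed from the same reads. Width was also smaller in 10 of 10 fold classes, with differences from −1 to −108 bp.

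This relation of −log10 q to fold was not particular to distances over 100000 bp. Peaks whose nearest neighbour lay 5000 to 20000 bp away already had a rho of 0.986 (n = 32068), and 85.0% of them had a −log10 q below the median of their fold percentile. Their −log10 q relative to that median was 0.832 at the median, against 0.821 for isolated peaks and 1.41 for peaks with a neighbour within 1000 bp. At 1000 to 5000 bp it was 1.13, and at 20000 to 50000 bp and 50000 to 100000 bp it was 0.811 and 0.805.

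**Figure D3:**
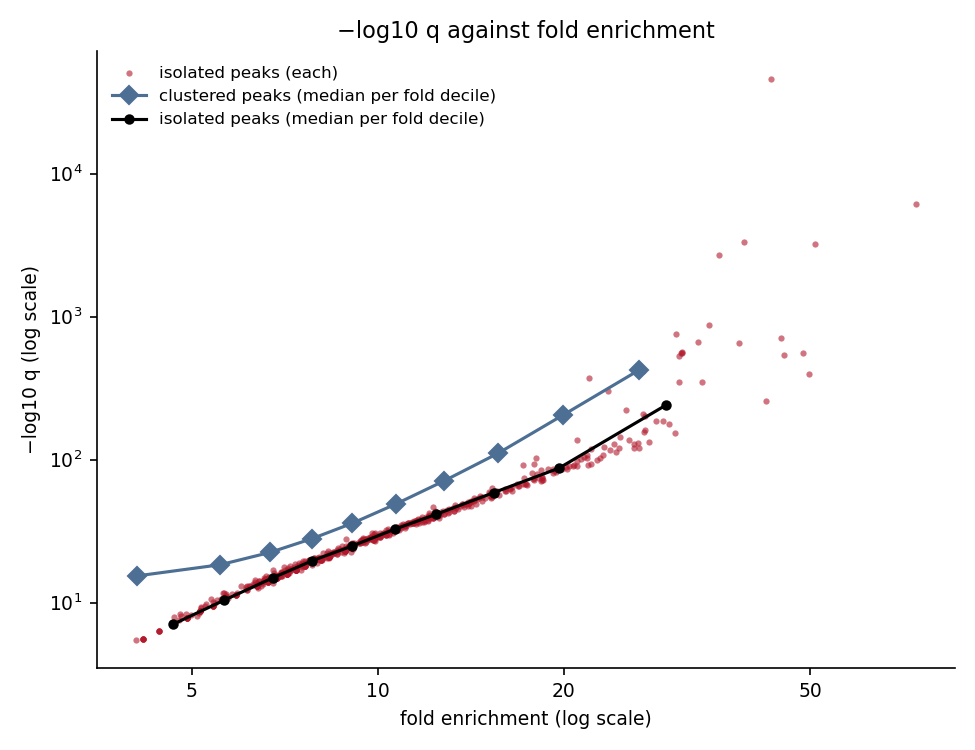
The −log10 q against fold enrichment, both on log scales, for each of the 576 isolated peaks (red) and as medians in 10 classes of fold for isolated (black) and clustered (blue) peaks. The isolated median lies under the clustered one in every class; 17 of the 576 isolated peaks lie above the clustered median of their class, 16 of them in the highest class, and the highest point is a −log10 q of 46003 at a fold of 43.2.

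Fold did not change evenly with distance. The median was 9.11 with a neighbour within 1000 bp and 9.29 at 1000 to 5000 bp. It was highest, 12.3, at 5000 to 20000 bp, and then 10.9 at 20000 to 50000 bp, 10.2 at 50000 to 100000 bp and 9.09 for isolated peaks. The share with a fold of at least 20 had the same shape, from 10.3% in the nearest class through 26.9% at 5000 to 20000 bp to 10.8% for isolated peaks. Median −log10 q, in contrast, was lower in each successive class, from 52.7 to 24.9. So the likeness in fold of isolated and clustered peaks joins the 2 ends of a curve with its highest value between them.

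**Figure D4:**
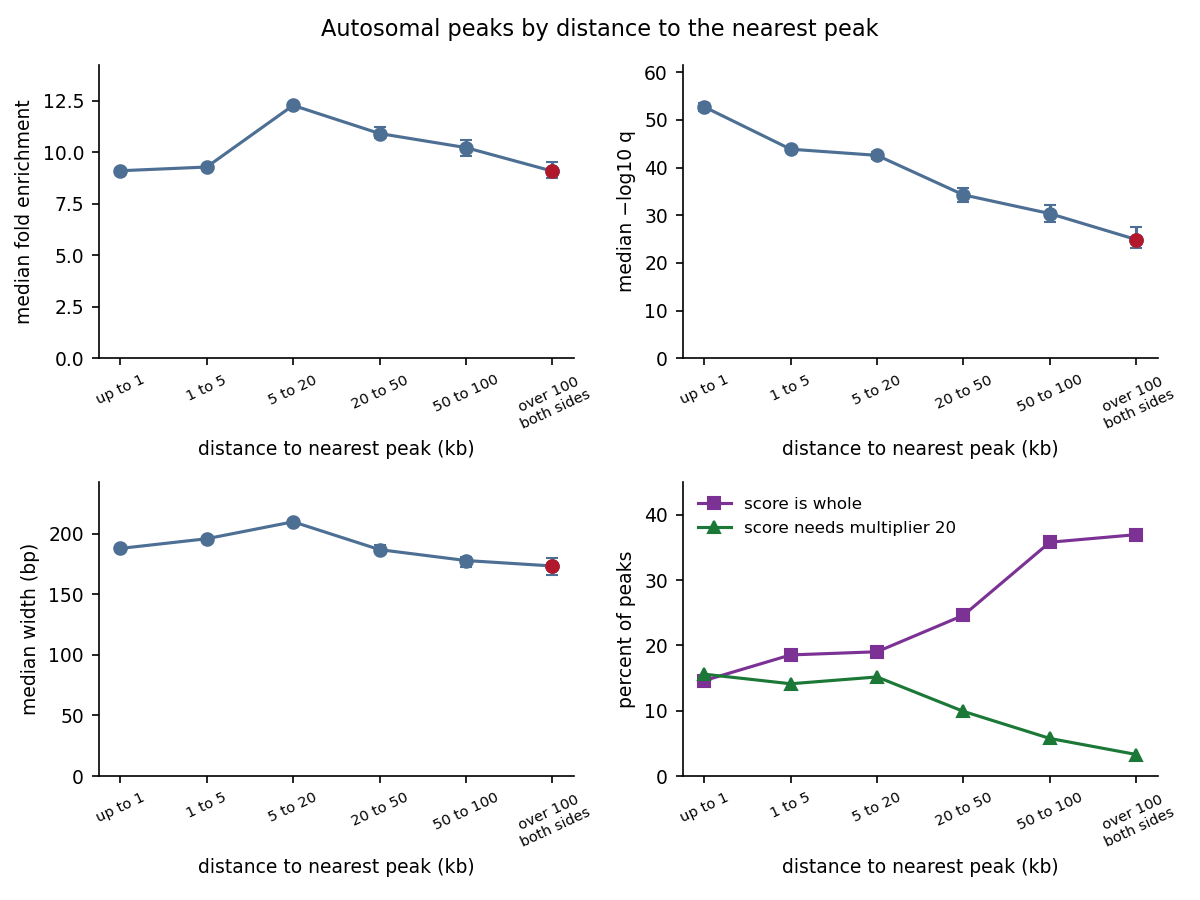
Median fold enrichment, −log10 q and width (bp) with 95% order-statistic intervals, and the shares of 2 kinds of score, for autosomal peaks in 6 classes of distance to the nearest peak (isolated peaks in red in the first 3 panels). Fold and width are highest at 5 to 20 kb, at 12.3 and 210 bp, while −log10 q is lowest for isolated peaks, at 24.9.

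Beyond 100000 bp, more distance went with little further change. Isolated peaks with a nearer gap of up to 150000 bp (n = 231) had medians of 9.12 in fold and 25.4 in −log10 q. Those with a nearer gap over 500000 bp (n = 59) had 8.90 and 24.5. Their median widths were 176 and 169 bp. Intermediate gaps gave median folds of 9.58 (150000 to 200000 bp, n = 108) and 8.84 (200000 to 500000 bp, n = 178).

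Peaks that shared the empty surroundings but had company had medians of −log10 q between those of the classes. There were 97 groups of 2 to 5 peaks joined by gaps of at most 5000 bp, each group more than 100000 bp from any other peak. The median fold of their 220 peaks was 9.07, nearly that of single isolated peaks, and the median −log10 q was 29.7 (95% interval 24.5 to 35.9). That interval overlaps the 23.1 to 27.4 of isolated peaks, so these groups are not set apart from them. The 3726 peaks with only one flank over 100000 bp had medians of 10.6 and 33.1. Each peak in the 97 groups has a neighbour within 5000 bp. Yet relative to the median of the fold percentile, their −log10 q was 0.865 at the median. It was 0.821 for isolated peaks and 1.24 for all clustered peaks.

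Whole-number scores were more frequent among isolated than among clustered peaks, at the end of a gradual trend with distance. The score of a peak is about 10 times its −log10 q, and many scores are fractions; the smallest whole number by which a score must be multiplied to become whole, up to 20, describes such a fraction. How scores were combined over samples is not given, so the multiplier is used here only as a description. Whole scores were found in 213 isolated peaks, or 37.0% (Wilson 95% interval 33.1% to 41.0%), against 16.8% of clustered peaks and 17.7% of all autosomal peaks. The multiplier 20 was found in 19 isolated peaks, or 3.30% (2.12% to 5.09%), against 14.8% of clustered peaks and 14.6% of all autosomal peaks. The share of whole scores was higher among isolated peaks on 19 of 19 autosomes and the share of multiplier 20 lower on 19 of 19; 9 autosomes held no isolated peak of multiplier 20. These shares were not particular to distances over 100000 bp. Whole scores made up 14.6% of peaks with a neighbour within 1000 bp, 18.6% at 1000 to 5000 bp, 19.03% at 5000 to 20000 bp, 24.6% at 20000 to 50000 bp and 35.8% at 50000 to 100000 bp, next to the 37.0% of isolated peaks. Multiplier 20 made up 9.90% at 20000 to 50000 bp and 5.76% at 50000 to 100000 bp. Among peaks with only one flank over 100000 bp, 27.9% had whole scores.

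Because strong peaks more often have multiplier 20, the comparison was repeated within the 10 fold classes. The share of multiplier 20 was lower among isolated peaks in 10 of 10. In the 7 lowest classes, with folds up to 14.1, none of 454 isolated peaks had it, which allows a share of up to 0.661%, against 6491 of 74103 clustered peaks, or 8.76%. In the highest class it was 18.2% against 37.2%. Whole scores were more frequent among isolated peaks in 8 of 10 classes; in the 2 highest they were 5.26% against 5.58% and 4.55% against 5.19%.

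**Figure D5:**
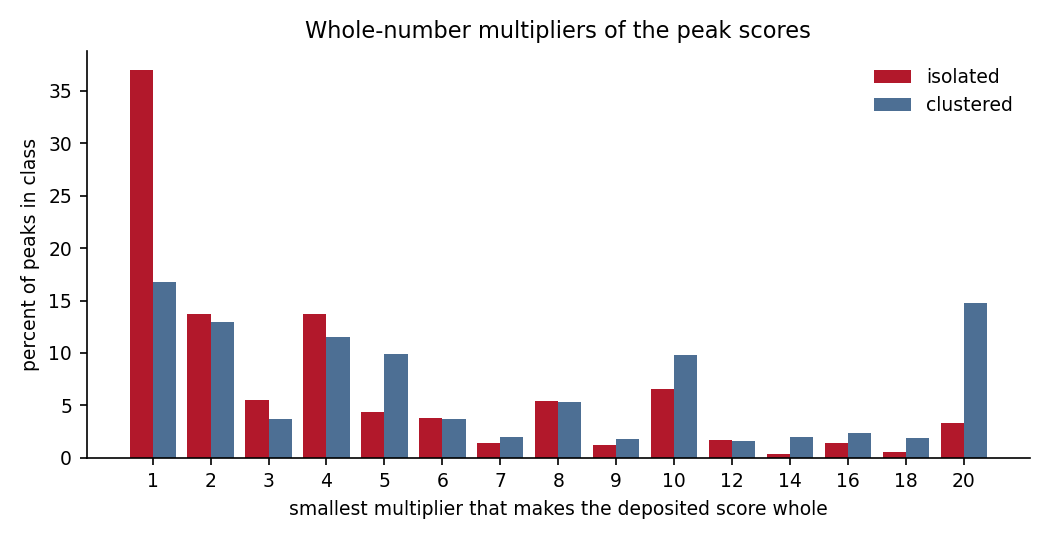
Percent of isolated (red) and clustered (blue) peaks by the smallest multiplier that makes the deposited score a whole number. Whole scores, multiplier 1, make up 37.0% of isolated and 16.8% of clustered peaks, and multiplier 20 makes up 3.30% and 14.8%.

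A narrower class, called candidates for single values, took whole scores whose fold, −log10 p and −log10 q were all written with at most 6 significant digits. It held 149 isolated peaks, or 25.9% (Wilson 95% interval 22.5% to 29.6%), against 4.25% of clustered peaks and 4.96% of all autosomal peaks. At 50000 to 100000 bp the share was already 20.8%, and at 20000 to 50000 bp 11.6%. Among the 149, fold was 7.37 and width 147 bp at the median. Exact repeats were frequent as well: 170 isolated peaks, or 29.5%, had the same fold, −log10 p and −log10 q to the last digit as another autosomal peak, against 2.64% of clustered peaks and 5.11% of all. The most frequent set among isolated peaks, a fold of 7.13 with a −log10 q of 15.9, occurred in 10 of them, of 117 to 266 bp. The same set occurred in 47 clustered peaks, so it was not particular to isolated ones. Which sample or group such a value came from is not given in the list.

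The 19 isolated peaks of multiplier 20 lay on 10 autosomes and had folds from 15.2 to 74.1, with a median of 20.2. Their widths were 164 to 517 bp, with a median of 280 bp. Chromosome 4 held 4 of them and chromosome 9 held 3. In 15 of the 19 the −log10 q was below the median of its fold percentile, against 558 of all 576 isolated peaks, which include these 19. Their −log10 q relative to that percentile was 0.680 at the median, against 1.74 for clustered peaks of multiplier 20. The one of highest fold on chromosome 4, chr4:64416015-64416296, had a fold of 42.5. Its −log10 q of 258 was 0.409 times that median.

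A few isolated peaks were among the strongest of the autosomes. The highest fold was 74.1, at chr6:9889952-9890155, a peak of 204 bp with gaps of 941117 and 800530 bp, and only 1 autosomal peak had a higher fold. It was followed by chr8:20697744-20698205 with 50.9, chr8:15569837-15570058 with 49.8, chr3:62066501-62066785 with 48.8 and chr2:176898011-176898551 with 45.4. Among the 100 autosomal peaks of highest fold, 8 were isolated, and among the first 1000, 11 were. The isolated share of the first 100 thus stood above their 0.420% of all autosomal peaks, and 8 of the 11 were already among the first 100.

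By −log10 q the highest was chr12:97028208-97028560, at 46003 with a fold of 43.2, the highest −log10 q on the autosomes. Next came the chromosome 6 peak of highest fold, at 6107, then chr4:79921004-79921226 at 3343, chr8:20697744-20698205 at 3217 and chr3:5925401-5925846 at 2706. These 5 ranked 1, 8, 12, 13 and 19 among autosomal peaks, and no other isolated peak was among the first 1000. They were also the 5 isolated peaks whose −log10 q reached 4 times the median of their fold percentile or more, at 72.9, 9.68, 5.30, 5.10 and 4.29 times. Only the one on chromosome 12 passed 20 times, a level reached by 0.0386% of autosomal peaks. Among all 62 isolated peaks of fold 20 or more, low values were more frequent: 45 had a −log10 q below that median, or 72.6%, against 36.0% of 10955 clustered peaks of that strength. Their width was a median of 297 bp (95% interval 225 to 370) against 372 bp for the clustered ones.

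The widest isolated peak was chr6:147377282-147378172, 891 bp with a fold of 21.9. The next were chr10:92557854-92558626 (773 bp, fold 30.3), chr16:37359838-37360564 (727 bp, fold 34.3), chr6:133082082-133082775 (694 bp, fold 23.6) and chr7:41042460-41043124 (665 bp, fold 26.8). All 5 had a −log10 q above the median of their fold percentile, by 1.22 to 1.80 times. The narrowest were chr6:61157278-61157370 (93 bp, fold 6.58), chr14:100523641-100523741 (101 bp, fold 5.18), chr18:47501960-47502064 (105 bp, fold 7.19), chr13:13200598-13200703 (106 bp, fold 6.30) and chr5:23319337-23319448 (112 bp, fold 9.90). All of these lay below that median. Of the 13 isolated peaks at least 500 bp wide, 12 had a fold of 20 or more, against 2608 of 6265 clustered peaks of that width. Across all 576, width and fold had a Spearman's rho of only 0.284 (clustered peaks, 0.353).

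What counts as isolated depended on which weak peaks were in the list. When every peak with a −log10 q under the list's median of 45.3 was dropped and distances were measured again, 652 peaks were isolated, of which 138 were among the 576 and 514 were newly isolated. Their median fold was 18.9, against 12.8 for clustered peaks of that list, and their median width was 230 bp against 229 bp. The median −log10 q was 84.3 against 122. Because the list was cut on −log10 q itself, these medians depend in part on the cut. Multiplier 20 was found in 22.7% of the 652 isolated peaks against 25.9% of clustered peaks. When the candidates for single values were removed, 551 peaks were isolated, 427 of them from the 576. Whole scores then made up 15.6% against 13.0% of clustered peaks, and multiplier 20 made up 4.90% against 15.5%. The lower share of whole scores follows from the removal, since every candidate has a whole score.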

How the data were processed

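The deposited list is a narrowPeak table with no header, 1 row per consensus peak. Per the submitters' processing notes, the tools were deepTools 3.5.1, MACS2 2.2.7.1, Picard 2.27.4 and STAR 2.7.9a, and the build mm39. What each tool did, the peak threshold and the way of combining samples are not stated there. By the layout of the deposited file, columns hold the authors' score, their fold (a ratio over local background), their −log10 p, their −log10 q and the summit offset. Coordinates were read as counted from 1, since 74 summit offsets reached the width when counted from 0 and 0 when counted from 1.

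Gaps ran from peak end to peak start within a chromosome. A score was called whole within 1e-06. Peak classes were described by medians, shares and per-autosome medians with no test; Wilson and order-statistic intervals treat peaks as independent and cover counting error only. Named regions are the 5 highest, widest, narrowest or most isolated, those nearest the threshold and the strongest on the 3 fullest chromosomes; the 5 by −log10 q relative to fold and the chromosome 6 run were chosen after their values were seen. The distance rule and the multipliers were tested on simulated data. The members and comparisons were chosen with earlier results of these data known. Alternatives covered distances, ends, merging, summits, stricter lists and fold classes. Planned motif, gene and marker results were not run, since no mm39 sequence or annotation was used here. Software was scipy 1.17.1, pandas 2.3.3, numpy 2.4.6 and matplotlib 3.10.9 under Python 3.11.15.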

Additional observations from a re-analysis of the deposited data

Results flagged for a closer look

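The same distance rule was applied to the sex chromosomes and found peaks on both. No isolated or clustered peak described above lay on them. Their peaks did enter the fold percentiles and the list's median −log10 q used above. On X, 33 of 3008 peaks were isolated, or 1.10%, above the 0.219% to 0.660% of the autosomes, while the 2.03 per 10 Mb lay within the autosomal range of 1.72 to 3.20. Their median fold was 9.57 against 9.83 for clustered peaks on X, their median −log10 q 27.2 against 39.8, and their median width 179 against 191 bp. Whole scores made up 27.3% against 16.8%. On Y, 15 of 63 peaks were isolated, or 23.8%, which is 1.66 per 10 Mb and below every autosome. Their median fold was 6.14 against 8.41 for 34 clustered peaks on Y, and their median −log10 q 12.2 against 80.4. Whole scores were found in 10 of the 15, or 66.7%, against 14.7% of the clustered peaks on Y. These peaks drew attention because they lie outside the main measurement; the differences were not tested.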

How the results depend on the processing

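Of 89 alternative values over 13 results, 55 stayed within the 95% interval of the reported value or, for the number of peaks, within 1.5 times, 33 moved and 1 reversed. Of the 89, 19 could not change, because the clustered distance does not enter the isolated peaks' values, nor the isolation distance or chromosome ends those of clustered peaks; of the other 70, 36 stayed. With an isolation distance of 50000 bp there were 1528 isolated peaks (1.11%) with a median fold of 9.81 and −log10 q of 28.4, and the median difference in fold over autosomes was 0.79. At 200000 bp there were 237 (0.173%). With peaks under the median −log10 q dropped, 0.948% were isolated, with a width of 230 bp, a fold of 18.9 and a −log10 q of 84.3, whole scores in 12.1% and multiplier 20 in 22.7%. Clustered peaks there had 229 bp, 12.8 and 122. The median differences over autosomes, isolated minus clustered, were then 2.5 bp (−17 bp in the full list, so reversed), 6.17 in fold and −37.6 in −log10 q; weak peaks, which the full list holds, are removed by construction. Without candidates for single values, isolated peaks had a width of 185 bp, a fold of 9.97, a −log10 q of 29.6 and, by construction fewer, whole scores in 15.6%. Clustered peaks of that reduced list had 195 bp, 9.42 and 50.5. Clustered peaks within 2000 bp had 190 bp, 8.96 and 49.4, and within 10000 bp 196 bp, 9.68 and 47.0. Merging peaks within 200 bp gave clustered peaks of 199 bp, 9.29 and 48.2, and distances between summits a clustered fold of 9.14. Weighted to the fold classes of clustered peaks, the mean of the class medians of width was 181 bp for isolated peaks. It was 209 bp for clustered peaks. These means of medians are not on the same footing as the plain medians given above. The lower −log10 q kept its direction under every alternative run, though the stricter list was cut on −log10 q itself. The alternative without single values and those of the score shares were chosen after seeing the data. Motif settings were left out, as no mm39 sequence was used. No paired analysis was possible because no column belongs to a sample. What an empty flank can show is limited by the unknown depth.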
